A study of Homo sapiens with 10 samples.

Results

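The genes described here are 49 protein-coding genes that copy DNA or prepare cells to copy it, measured in NB4 cells, a human acute promyelocytic leukaemia cell line. They were chosen by name, as rows of the expression tables annotated as protein-coding with a symbol on a list of replication genes, and all 49 were found among 19975 protein-coding rows (60603 rows in all). They fall into 9 roles, from the recognition of origins to the assembly of chromatin behind the fork.

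RNA was sequenced in 2 experiments. In the GSE1 knockdown (KD) experiment, lentivirus brought in either pLKO.1 puro without an insert (EV) or a pLKO.1 puro construct with a short hairpin against GSE1 (shA1 or shB2), and NB4 cells were collected after 48 h, with 2 libraries per group and 6 in all. In the LSD1 inhibition experiment, NB4 cells given DMSO or 2 µM of the LSD1 inhibitor MC2580 were collected after 24 h, again with 2 libraries per group and 4 in all. LSD1 (gene KDM1A) is a histone demethylase, GSE1 is a chromatin protein that binds it, and no group of the LSD1 inhibition experiment was transduced. In both experiments the cells are a single established line, so the values speak for NB4 and not for leukaemic cells of patients.

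For each gene, the value used is the base mean, taken as the normalised read count that the authors averaged over every library of an experiment, treated and control together. In the knockdown experiment its label names shB2 only, so the inclusion of the shA1 libraries was inferred and not checked. The base mean is therefore the authors' mean, with no replicate value, no SD and no test behind it. Levels by hairpin, by drug or by library are not analysed here, and no statement below is about a response to GSE1 KD or to MC2580. The order of genes whose base means lie close together cannot be judged, because the spread between libraries is unknown. In bulk RNA, fewer cells in S phase and less RNA per cell cannot be told apart either.

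DNA replication starts at origins, where the origin recognition complex, CDC6 and CDT1 load the MCM2-7 ring on DNA while the cell is in G1. At the start of S phase, kinases together with CDC45 and the GINS complex turn that ring into a moving helicase, and primase, the DNA polymerases, the PCNA clamp and the ligase follow it. E2F transcription factors, released from RB1 as cyclin E activity rises, switch on many of these genes at that point. Features of their promoters commonly discussed in this setting are the E2F site, the CCAAT box bound by NF-Y, and the cell cycle homology region (CHR) that is typical of genes of the later cell cycle.

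Promoter sequences were read from RefSeq (GRCh38.p14) as 300-base windows, from 250 bases before to 50 bases after a transcription start, and 41 of the 49 genes had such a window. An E2F word was defined as any of the 8-letter strings TTTCCCGC, TTTCGCGC, TTTGCCGC and TTTGGCGC, on either strand. The windows of MCM2, MCM6, MCM7 and E2F1 are shown because they hold the word more than once and because MCM7 is the most abundant transcript of the set. MCM3 also holds the word more than once, with 2 matches, and its window is not shown. Capitals mark the E2F words, each sequence runs 5′ to 3′ on the gene's own strand, and adjoining or overlapping matches form a single run of capitals.
MCM2 promoter, chr3:127598161-127598460, plus strand: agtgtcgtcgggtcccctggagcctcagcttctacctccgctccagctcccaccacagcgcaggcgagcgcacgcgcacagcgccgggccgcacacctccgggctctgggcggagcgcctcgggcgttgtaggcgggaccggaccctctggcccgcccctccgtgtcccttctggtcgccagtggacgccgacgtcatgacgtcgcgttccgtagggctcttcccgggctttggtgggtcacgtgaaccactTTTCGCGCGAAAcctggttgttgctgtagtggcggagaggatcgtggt
MCM6 promoter, chr2:135876394-135876693, minus strand: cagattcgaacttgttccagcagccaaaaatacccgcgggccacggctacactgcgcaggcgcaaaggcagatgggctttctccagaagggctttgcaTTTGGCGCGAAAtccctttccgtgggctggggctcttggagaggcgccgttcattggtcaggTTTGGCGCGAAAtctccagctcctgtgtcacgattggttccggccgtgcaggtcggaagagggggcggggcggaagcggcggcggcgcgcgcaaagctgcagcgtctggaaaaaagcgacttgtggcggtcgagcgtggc
MCM7 promoter, chr7:100101348-100101647, minus strand: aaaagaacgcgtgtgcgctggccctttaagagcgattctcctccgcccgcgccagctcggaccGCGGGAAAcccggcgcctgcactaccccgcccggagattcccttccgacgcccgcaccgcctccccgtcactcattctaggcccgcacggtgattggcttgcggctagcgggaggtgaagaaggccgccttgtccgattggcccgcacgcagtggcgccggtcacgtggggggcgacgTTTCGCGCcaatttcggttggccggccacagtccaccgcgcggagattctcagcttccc
E2F1 promoter, chr20:33686336-33686635, minus strand: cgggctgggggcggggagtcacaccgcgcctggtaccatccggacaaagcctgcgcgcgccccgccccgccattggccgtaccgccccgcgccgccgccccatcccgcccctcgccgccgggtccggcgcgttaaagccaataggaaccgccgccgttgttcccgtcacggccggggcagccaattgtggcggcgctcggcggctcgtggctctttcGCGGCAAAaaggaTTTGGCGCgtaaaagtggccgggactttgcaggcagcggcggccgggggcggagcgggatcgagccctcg

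In the MCM2 and MCM6 windows an E2F word on the gene's strand overlaps another on the opposite strand. MCM6 holds that 12-letter arrangement at 2 places, so its window has 4 matches, whereas MCM2 has a single such arrangement right after its start. MCM7 has 2 separate matches, and E2F1, which encodes a factor that itself binds such words, has 2 close to each other. Of the 41 windows, 19 (46.3%) held at least 1 E2F word. The share was 3.39% over all 27305 promoters of the same length, 4.45% over the 14906 of protein-coding genes and 5.54% over the 9674 whose genes had a base mean of 10 or more in both experiments. With only the last 7 letters of the word, 30 of 41 windows (73.2%) matched, beside 21.1% of the expressed genes' promoters. At least 2 matches of the whole word were found in 5 of the 41 windows (12.2%), beside 0.3% of the expressed genes' promoters.

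The word was also counted among promoters of like GC content. The median GC content was 65.7% for the replication genes, 66% for the expressed genes and 59% for all promoters. Within windows of 60 to 70% GC, 10 of 19 replication genes had the word, beside 5.89% of expressed genes. Between 50 and 60% GC the figures were 4 of 10 beside 6.41%, and above 70% GC they were 5 of 12 beside 5.32%. A separate list of 35 other replication genes, such as ORC2 to ORC5, RRM2 and TYMS, had the word in 11 of 29 windows (37.9%). A match is a run of letters and not a measured binding site.

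By role, with counts too small to compare, the matches were as follows. All 4 MCM2-7 genes with a window had it (MCM2, MCM3, MCM6 and MCM7), as did GINS1, GINS2 and GINS3 among 7 genes of helicase activation. Among 8 genes of primase and polymerases it was present in POLA1, POLA2, POLE and POLE2, the genes of polymerase alpha and epsilon in this set. The word was not found in POLD1, POLD2, PRIM1 or PRIM2. In the licensing group CDC6 and CDT1 held it while ORC1, ORC6 and GMNN did not, and among the S phase entry genes E2F1 and E2F2 held it while CCNE1 did not. RFC3 was the only match among 6 genes of the clamp and its loader. LIG1, CLSPN and UHRF1 complete the 19. These counts depend on the first letter of the word. With the last 7 letters alone, the clamp and its loader went from 1 to 5 of 6 (RFC1 to RFC5), the chromatin and fork genes from 2 to 5 of 5, and CDC7, ORC1, PRIM1 and RPA1 matched too. Where no match was found, this says only that these letters are not in the window.

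The 26 matches lay from position -187 to position 8, where position -1 is the base just before the start and there is no base 0. Their median position was -32. Of these, 16 began within 100 bases before the start and 4 began after it, in MCM2 (2 matches), CDC6 and GINS1. When the window was cut to the 150 bases nearest the start (100 before to 50 after), 17 of 41 windows (41.5%) still held the word, beside 2.77% for expressed genes.

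The CCAAT box was common in the same windows. It occurred in 23 of 41 (56.1%), beside 36.7% of expressed genes and 35.7% of all promoters, and 11 windows (26.8%, beside 2.4% of expressed genes) held both an E2F word and a CCAAT box. The CHR word TTTGAA was searched as well and was present in 1 window (2.44%), beside 9.22% of expressed genes and 15.1% of all promoters. The separate list of other replication genes had the CCAAT box in 15 of 29 windows (51.7%). That list had the CHR word in 3 of 29 (10.3%), so few CHR words were not a trait of both lists, and both CHR counts are small.

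**Figure D1:**
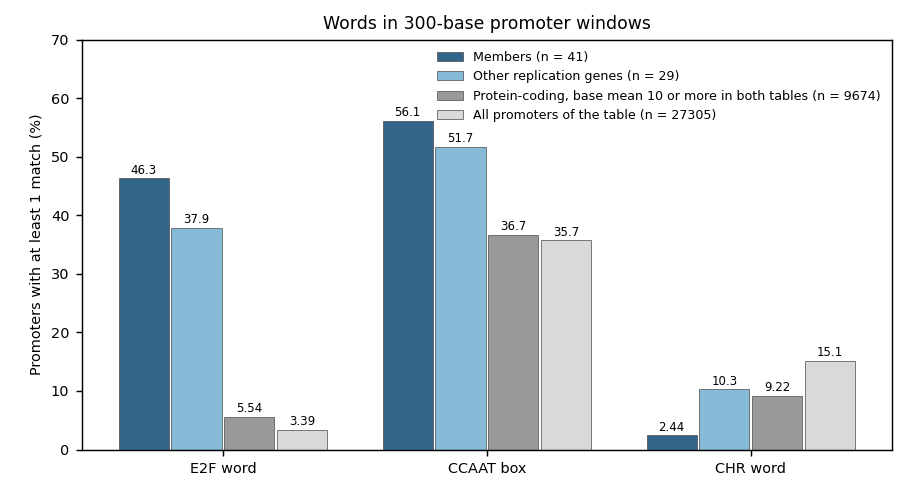
Percentage of 300-base promoters with at least 1 match of the E2F word, the CCAAT box or the CHR word, for the replication genes, other replication genes, expressed protein-coding genes and all promoters. The E2F word is at 46.3% in the replication genes and at 5.54% in expressed genes, while the CHR word is at 2.44% and 9.22%. In the other replication genes the E2F word is at 37.9% and the CHR word at 10.3%.

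As a class the replication genes were expressed at a high level. Their median base mean was 3667 in the knockdown experiment and 3677 in the LSD1 inhibition experiment, beside 409 and 396 for the 17337 and 17091 protein-coding genes above 0. The median replication gene stood at the 85.3rd percentile of those genes in the first and the 85.8th in the second. Percentile 75 was reached by 33 and 34 of the 49, and percentile 90 was reached by 17 and 18. CCNE2 and E2F2 were below the median protein-coding gene in both. Together the 49 genes took 8426 of every 1000000 normalised reads in the knockdown experiment and 8968 in the LSD1 inhibition experiment. The list of 35 other replication genes had medians of 3109 and 2616 and placed 20 genes at or above percentile 75 in each.

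Base means grow with transcript length, so genes are set against each other below per kilobase (kb) of their longest GENCODE 44 transcript. On this scale the median replication gene had 1229 per kb in the knockdown experiment and 1200 in the LSD1 inhibition experiment, beside 104 and 99.2 for protein-coding genes. RSEM estimated the reads of each gene over its transcripts, and which transcripts NB4 cells use is unknown here, so a level per kb rests on the length taken.

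**Figure D2:**
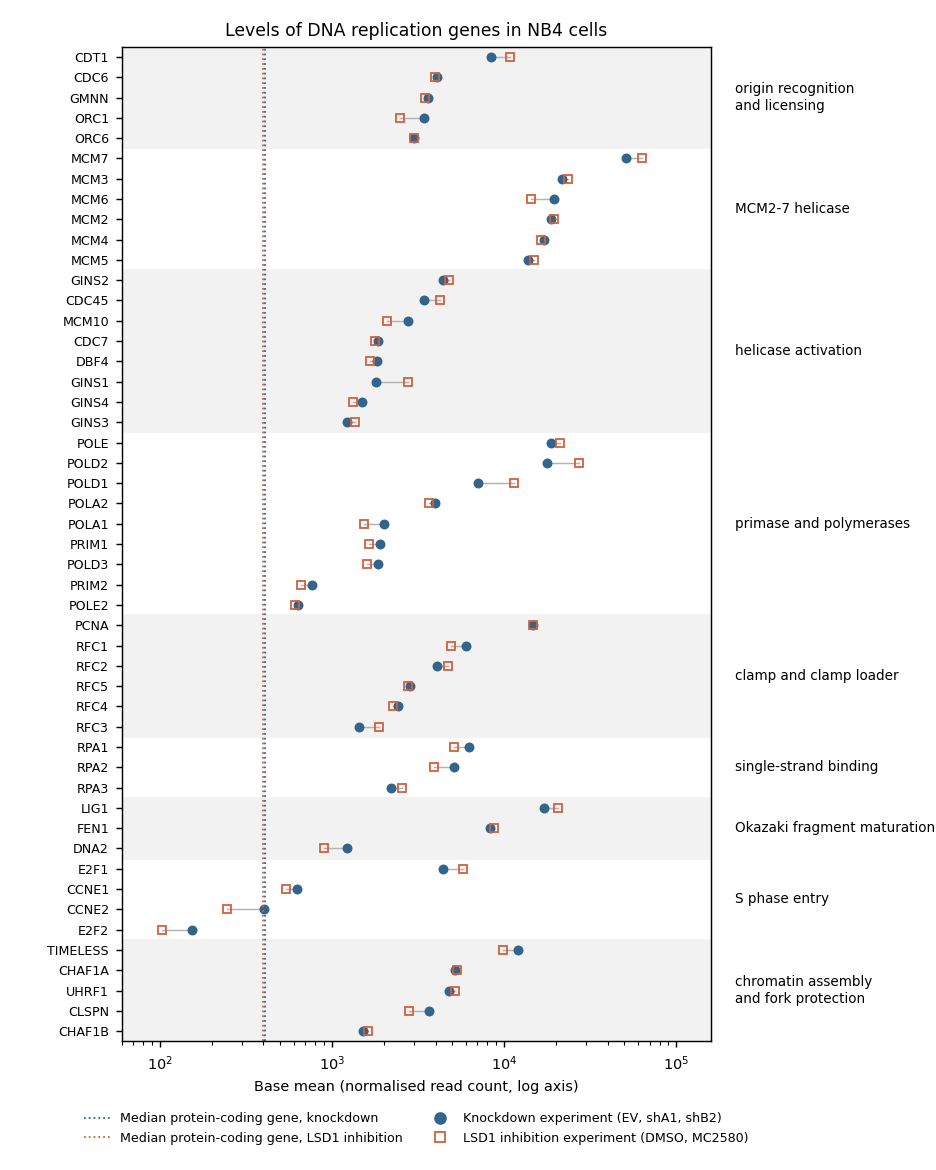
Base mean of each replication gene (log axis) in the knockdown experiment (filled circles) and the LSD1 inhibition experiment (open squares), by role, 1 pooled value per gene and experiment without error bars. The dotted lines mark the medians of protein-coding genes, 409 and 396, and CCNE2 and E2F2 are at or below them.

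The MCM2-7 helicase unwinds the parental DNA, and its 6 subunits form a ring made of different proteins. They were the most abundant role, with a median base mean of 19049 in the knockdown experiment and 17923 in the LSD1 inhibition experiment, and all were far above the median gene. MCM7 led with 51008 and 63346. MCM3 followed with 21573 and 23414, MCM6 had 19390 and 14314, and MCM2 had 18708 and 19571. MCM4 had 17033 and 16275, and MCM5 had 13830 and 14875. Apart from MCM7, the base means of the ring's subunits thus lay within 1.56-fold of each other in the knockdown experiment and 1.64-fold in the LSD1 inhibition experiment. Per kb of longest transcript the same subunits spread wider, over 2.24-fold and 2.44-fold. With the median length over a gene's transcripts they spread over 3.53-fold and 3.10-fold.

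MCM7 ranked 67th among protein-coding genes in the knockdown experiment. Its base mean was 2.36-fold that of MCM3 there and 2.71-fold in the LSD1 inhibition experiment. Per kb of longest transcript the ratios were 2.46 and 2.81, with 16534 per kb for MCM7 and 6725 for MCM3 in the knockdown experiment. Per kb of MANE Select transcript, MCM7 exceeded MCM3 2.94-fold in the knockdown experiment and 3.36-fold in the LSD1 inhibition experiment. Divided by the median length over a gene's transcripts instead, MCM6 was highest in the knockdown experiment and MCM7 stood at 0.772 of it. That median was 712 bases for MCM6, whose longest and MANE Select transcripts have 3753 bases, and 2426 bases for MCM7. The lead of MCM7 thus held for base means and for the longest and MANE Select transcripts. It did not hold for the median length in the knockdown experiment.

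MCM7 also hosts microRNA genes. By RefSeq (GRCh38.p14), MIR25, MIR93 and MIR106B lie on the minus strand inside intron 13 of its canonical transcript, which has 15 exons. Their main mature products are shown because they come from the intron of the most abundant member, with the seed (bases 2 to 8) in capitals. miR-93-5p and miR-106b-5p share their seed, and miR-25-3p has another. Libraries of messenger RNA do not measure mature microRNAs, so no level is given.
hsa-miR-25-3p, chr7:100093571-100093592: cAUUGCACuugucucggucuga
hsa-miR-93-5p, chr7:100093815-100093837: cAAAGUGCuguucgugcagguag
hsa-miR-106b-5p, chr7:100094043-100094063: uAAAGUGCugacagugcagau

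Licensing factors load that ring on origins. CDT1, the loader of MCM2-7 that geminin holds back, was the highest of them with 8344 in the knockdown experiment and 10825 in the LSD1 inhibition experiment. GMNN, which encodes geminin, had 3591 and 3481. CDT1 therefore exceeded its inhibitor 2.32-fold and 3.11-fold in base mean, but 1.10-fold and 1.47-fold per kb of longest transcript and 2.17-fold and 2.91-fold with the median length. The ATPase CDC6, which works with ORC, had 4088 and 3955. ORC1, the large ATPase subunit of the origin recognition complex, had 3405 and 2493, and the small subunit ORC6 had 3013 and 2990. Per kb ORC6 was the higher of the pair, with an ORC1 to ORC6 ratio of 0.664 and 0.490, or 0.434 and 0.320 with the median transcript length.

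Genes that activate the helicase were less abundant than the ring itself, with a median base mean of 1844 in the knockdown experiment and 1924 in the LSD1 inhibition experiment. GINS2 had 4394 and 4797. The other GINS subunits, GINS1 (1794 and 2752), GINS3 (1220 and 1360) and GINS4 (1497 and 1330), were all lower. Per kb GINS2 was 4.19-fold above GINS1 in the knockdown experiment and 2.99-fold in the LSD1 inhibition experiment. The folds were 11.3 and 8.04 with the median transcript length, and 3.08 and 2.20 for the MANE Select transcript. CDC45, which joins GINS on the ring, had 3408 and 4220. MCM10, needed for the ring to start moving, had 2781 and 2077. CDC7 and DBF4, the kinase and its activator, had nearly equal values, with 1854 and 1770 for CDC7 and 1834 and 1653 for DBF4.

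Among primase and the polymerases the range was wide. Polymerase alpha with primase starts each strand with a short primer: POLA2 had 3987 and 3677, POLA1 2004 and 1538, PRIM1 1890 and 1642, and PRIM2 766 and 659. Polymerase delta extends the lagging strand. Its small subunit POLD2 had 17653 and 27374, its catalytic subunit POLD1 7047 and 11348, and POLD3 1857 and 1599. Per kb POLD2 exceeded POLD3 9.64-fold in the knockdown experiment and 17.4-fold in the LSD1 inhibition experiment, with 4.23-fold and 7.61-fold for the median transcript length and 22.4-fold and 40.3-fold for the MANE Select transcript. Polymerase epsilon extends the leading strand, and its catalytic subunit POLE had 18694 and 20981, against 635 and 607 for POLE2. The base means of POLE and POLE2 thus differed 29.5-fold and 34.5-fold, and per kb, given the long POLE transcript, 6.09-fold and 7.14-fold. Further subunits, POLE3 and POLE4, are on the separate list of other replication genes. Per kb of longest transcript POLE3 had 3557 and 3719 and POLE4 had 3009 and 4154, above POLE with 2155 and 2419. With the median transcript length both were below POLE.

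**Figure D3:**
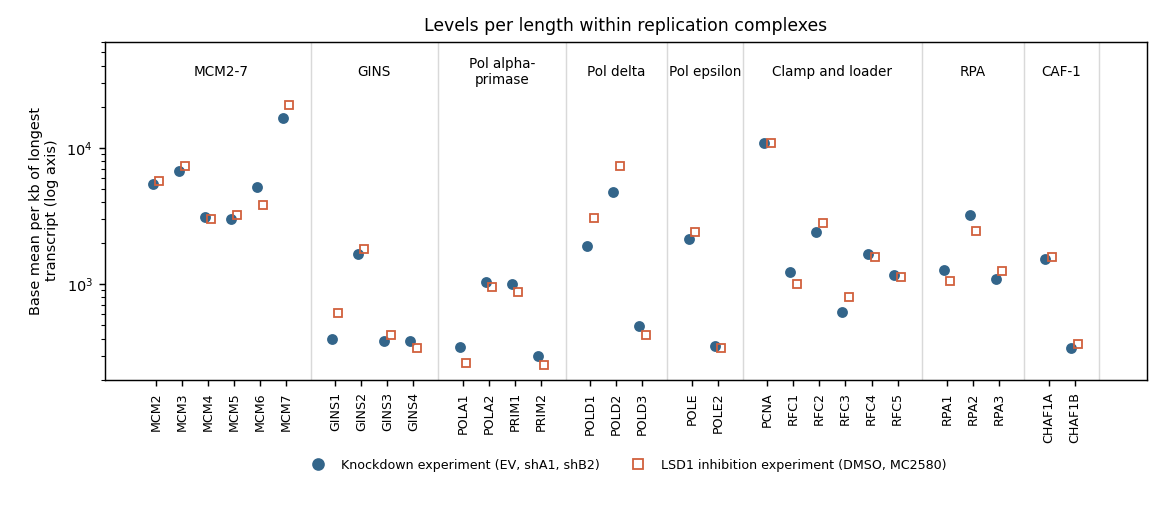
Base mean per kb of longest transcript (log axis) for subunits of 8 complexes or groups, in the knockdown experiment (filled circles) and the LSD1 inhibition experiment (open squares), 1 pooled value each. MCM7, GINS2, POLD2, POLE and CHAF1A lie above the partners shown in their complex in both experiments on this length. POLE3 and POLE4, which exceed POLE on this length, are not shown.

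PCNA, the sliding clamp that holds polymerases on DNA, had 14629 in the knockdown experiment and 14792 in the LSD1 inhibition experiment, and 10765 and 10885 per kb. The loader RFC that opens the clamp was lower. Its large subunit RFC1 had 6003 and 4888, RFC2 4070 and 4738, RFC5 2839 and 2774, RFC4 2409 and 2273, and RFC3 1435 and 1869. PCNA exceeded RFC1 by 8.76-fold and 10.9-fold per kb of longest transcript and by 9.30-fold and 11.5-fold per kb of MANE Select transcript. With the median transcript length the folds were 1.18 and 1.46. That length is 637 bases for RFC1, whose MANE Select transcript has 4870. Within the loader RFC3 was lowest per kb in both experiments with each of these lengths. The highest was RFC2 with the longest and MANE Select transcripts and RFC1 with the median length.

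RPA coats single-stranded DNA at the fork. RPA1 had 6212 and 5093, RPA2 5083 and 3910, and RPA3 2203 and 2545, and per kb RPA2 was highest with the longest transcript and RPA1 with the median length, in both experiments. For the joining of Okazaki fragments, the ligase LIG1 had 17032 and 20675 and the flap nuclease FEN1 had 8333 and 8701. The nuclease and helicase DNA2, which acts on long flaps, had 1224 and 898. LIG1 thus stood 13.8-fold above DNA2 per kb in the knockdown experiment and 22.8-fold in the LSD1 inhibition experiment, or 5.59-fold and 9.25-fold with the median transcript length.

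The genes of S phase entry held both a high member and the lowest of the whole set. E2F1 had 4429 in the knockdown experiment and 5780 in the LSD1 inhibition experiment, whereas its relative E2F2 had 153 and 103. The gap between both activator E2F genes was 28.9-fold and 56.0-fold in base mean, 30.9-fold and 59.8-fold per kb of median transcript length, and 55.9-fold and 108-fold per kb of the longest. Cyclin E genes were low as well, with 625 and 537 for CCNE1 and 404 and 246 for CCNE2. E2F3, the remaining activator E2F, is on that separate list and had 3504 and 2588, and RB1, whose product holds these factors back, had 2989 and 1255.

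Chromatin and fork protection genes ranged from TIMELESS, a fork protection factor, with 12066 and 9823, to CHAF1B with 1520 and 1624. CHAF1A, the large subunit of the histone chaperone CAF-1, had 5188 and 5350, and exceeded its partner CHAF1B 4.53-fold and 4.37-fold per kb, or 6.97-fold and 6.73-fold with the median transcript length. UHRF1, which brings maintenance methylation to new DNA, had 4800 and 5171. CLSPN, the claspin mediator of the checkpoint, had 3667 and 2795. Members with an E2F word had a median base mean of 4394 (n = 19) and those without it 3406 (n = 22) in the knockdown experiment, with overlapping ranges of 153 to 51008 and 625 to 17653.

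The pooled levels of both experiments were also set side by side, each as a share of the sum of its own table. The experiments differ in transduction, duration, hairpins and drug, and each table was normalised alone, so what a difference comes from cannot be told apart. The 49 genes kept nearly the same order (Spearman's rho 0.976 over genes, which are not independent, and 0.980 over 12335 protein-coding genes). Shares more than 1.5-fold higher in the LSD1 inhibition experiment were found for 3 of the 49, beside 6.94% of the 12354 genes with a base mean of 10 or more in both. Shares more than 1.5-fold lower were found for 2 of the 49, beside 15.1%. The median log2 ratio was -0.07 for the replication genes and -0.09 for all genes.

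The 3 higher genes were POLD1 (log2 ratio 0.66), POLD2 (0.61) and GINS1 (0.59). The 2 lower ones were CCNE2 (log2 ratio -0.74) and E2F2 (-0.59), which are also the least abundant members. Scaled to the median gene, E2F2 was at -0.50 and no longer past 1.5-fold while CCNE2 was at -0.65, and CCNE2 shares 56.9% of its exon bases with the more abundant INTS8. No member reached a ratio of 2 either way, beside 1.26% of all genes upward and 4.89% downward. Within the ring, MCM6 had a log2 ratio of -0.46 and MCM7 of 0.29, and a further subunit of polymerase delta, POLD3, had -0.24. GINS1 and POLD2 lay just past the 1.5-fold line upward, with ratios of 1.51 and 1.53, and E2F2 just past it downward, with 0.663.

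GC content and length of the transcript moved with this ratio. Over all genes the log2 ratio had a Spearman's rho of 0.34 with transcript GC (n = 12335). With the length of the MANE Select transcript rho was -0.40, over those of these genes that have one. Over the replication genes the values were 0.49 and -0.34 (n = 49). When all genes were split into equal parts by GC at 44.1% and 54.7%, the median log2 ratio of all genes was -0.25 in the low part, -0.12 in the middle part and 0.15 in the high part. For the replication genes it was -0.23 (n = 18), -0.06 (n = 19) and 0.20 (n = 12) in the same order. POLD1 (64.8%) and POLD2 (59.4%) are GC-rich and CCNE2 is GC-poor, with 34.6% GC, while GINS1 (41.9%) and E2F2 (57.4%) lay against this trend. The part of GC and length in the ratios of single genes was not tested.

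**Figure D4:**
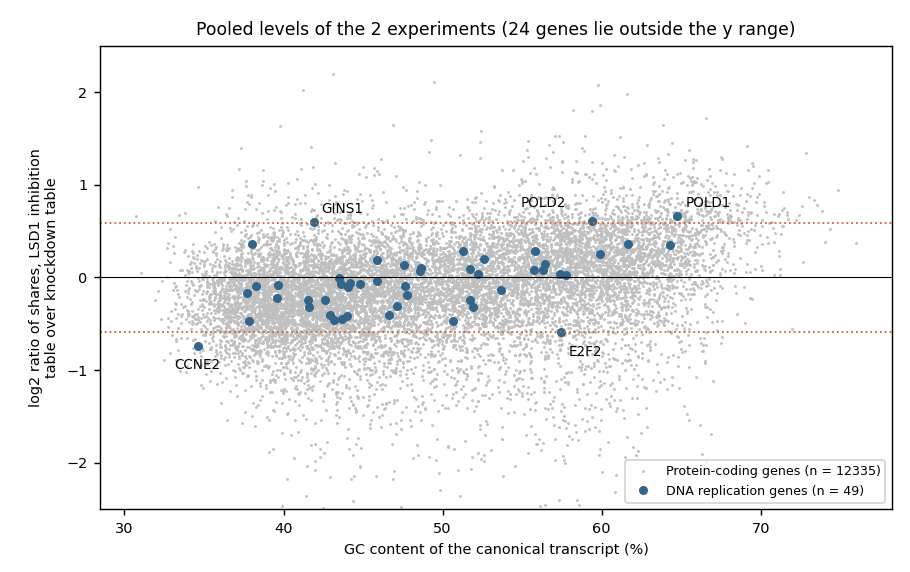
Log2 ratio of shares (LSD1 inhibition experiment over knockdown experiment) against GC content of the canonical transcript, for 12335 protein-coding genes (grey) and the 49 replication genes (blue), with dotted lines at 1.5-fold either way. The median log2 ratio of replication genes goes from -0.23 in the low GC part to 0.20 in the high GC part, as in all genes (-0.25 and 0.15), and 24 genes lie outside the plotted range.

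The 49 genes lie on 19 chromosomes, with 5 each on chromosomes 1, 7 and 19. By GENCODE 44 on GRCh38, 10 of them (20.4%) start head to head with another protein-coding gene within 1000 bases on the opposite strand, beside 9.50% of all protein-coding genes and 13.7% of those with a base mean of 10 or more in both experiments. The closest such pairs were RPA1 with SMYD4 at 103 bases, DBF4 with SLC25A40 at 133, ORC1 with PRPF38A at 179, POLE with PXMP2 at 245 and MCM7 with AP4M1 at 246. The neighbour had the lower base mean in 6 of the 10 pairs in the knockdown experiment. MCM7 had 51008 and AP4M1 1121, whereas MCM4 had 17033 and its neighbour PRKDC 26543, and ORC6 had 3013 and VPS35 6632.

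GINS2 ends tail to tail with GSE1, the gene that the hairpins target. GINS2 spans chr16:85676198-85690073 on the minus strand, and 7 bases at its end are shared with an exon of GSE1 on the plus strand. GSE1 had a base mean of 2963 in the knockdown experiment and 4441 in the LSD1 inhibition experiment, and KDM1A had 7648 and 6285. The TruSeq v2 kit does not mark strand, so reads from shared bases cannot be assigned by strand, although 7 bases are 0.266% of the GINS2 exons.

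Larger overlaps concern other members. Exon bases were shared with a gene of the opposite strand by 12 of 49 members, and 7 shared over 10% of their bases with some gene. The same counts are not at hand for all protein-coding genes, so these cannot be called high or low. CCNE2 shared 56.9% with INTS8, whose base mean of 1423 in the knockdown experiment exceeded that of CCNE2 (404). POLA2 shared 55.8% with a protein-coding gene on its own strand (ENSG00000285816, base mean 451), and MCM2 32.4% with an opposite-strand long noncoding RNA (188). PRIM1 shared 25.4% with a protein-coding gene on its own strand (ENSG00000285625, 109). It also shared 3.44% with the far more abundant NACA (35049). GINS4 shared 30.4% and GINS3 14.4% with opposite-strand long noncoding RNAs (11.6 and 21.2). POLD1 shared 12.4% with a protein-coding gene on its own strand (6.40). The levels of CCNE2, POLA2 and PRIM1 are uncertain because of such overlaps. The 11 pseudogenes named after 7 members reached at most 26.9, in DBF4P1, and so were low beside their parents.

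The labelled cell type was checked against markers. MPO, the peroxidase of promyelocyte granules, had 506765 and 824818, and CTSG, PRTN3, CD33 and MYB were between 2511 and 14042 in both experiments. AZU1 had 723 and 1814, whereas ELANE, the elastase of the same granules, was nearly absent at 1.10 and 3.87. Among markers of other cell types CD3E, HBB, ALB and COL1A1 did not exceed 14.4, while EPCAM had 432 and 403. The base means of all rows summed to 40543130 in the knockdown experiment and 41201112 in the LSD1 inhibition experiment, and the depth of each library is unknown here.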

How the data were processed

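Libraries were prepared with the TruSeq RNA v2 kit and sequenced on a NovaSeq instrument. The authors mapped reads to hg38 with STAR (2.7 in the submitters' processing notes), quantified genes with RSEM and fitted DESeq2; the versions of RSEM and DESeq2 and the annotation release are not given in the sources used here. Each of the 2 deposited tables holds a base mean, a normalised count signal taken as pooled by the authors over all libraries of an experiment. The authors' own comparisons stand beside it (log2 fold change, its standard error, statistic, p-value and adjusted p-value) and were not used. No column of values per library was left out.

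Groups came from the sample labels, which write the compound as MC280 in titles and MC2580 in treatments. Base means were described by percentile among protein-coding genes above 0, per kb of the longest GENCODE 44 transcript (19887 of 19975 genes matched by Ensembl ID) and as shares of each table's sum, with ratios for genes of base mean 10 or more in both. No test was made. Named genes were all 49 members, GSE1, KDM1A, a list of 35 other replication genes (by count) and the cell type markers, of which 1 is not reported here. ENSG00000285816, head-to-head neighbours and other overlapping genes, RB1, E2F3, POLE3 and POLE4 were named after their values were seen. The members and lists were chosen with earlier results of these data known. Promoters and microRNAs came from RefSeq (GRCh38.p14), with the window nearest the canonical start taken for each gene; CCNE2, DNA2, GINS4, MCM4, MCM5, POLD3, RPA2 and RPA3 had none. Python 3.11.15, pandas 2.3.3 and scipy 1.17.1 were used, and the scripts were tested on simulated data.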

Additional observations from a re-analysis of the deposited data

How the results depend on the processing

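No test, interval or left-out library could be computed, since only base means pooled over libraries were used. No paired analysis was possible because the columns used carry no replicate. The planned count test (edgeR), the replicate block, the left-out replicates and the comparison of MCM2-7 proteins were not run. The number of replication genes at or above percentile 75 was within 1.5 times of 33 and 34 under every other background or length tried (29 to 47 in the knockdown experiment, 28 to 46 in the LSD1 inhibition experiment); the MANE Select length was added after seeing the data. MCM7 over the highest of MCM2 to MCM6 was 0.772 per kb of median transcript length in the knockdown experiment, against 2.36 in base mean. Per kb of MANE Select transcript it was 2.94 there. The share of the LSD1 inhibition experiment over that of the knockdown experiment was also taken at other settings. A fold of 2 left 0 replication genes higher and 0 lower, beside 156 and 604 of all 12354 genes. Scaling to the median gene left 3 higher and 1 lower (E2F2 was lost), beside 1213 and 1456 of all 12354 genes. A minimum base mean of 50 left 3 higher and 2 lower, beside 608 and 1483 of all genes at that minimum. The last 7 letters of the E2F word matched 30 of 41 promoters (73.2%), beside 21.1% of expressed genes, and the shorter window 17.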
